A study of Homo sapiens with 8 samples.

Results

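The sites described here are 381 stretches of chromatin that carried both NFYB and NFYC at the end of a protein-coding gene in RH4 cells and that overlapped no NFYB peak in RH30 cells. They were chosen from the 3073 entries of the authors' RH4 consensus list, which holds the bases shared by an RH4 NFYB peak and an RH4 NFYC peak. Of these entries, 2380 overlapped a window of 1000 bp either side of a gene end (the start or the finish of the gene), and 381 of the 2380 (16.0%, 95% interval 14.6 to 17.5%) overlapped no peak, by even 1 bp, in any of the 4 RH30 NFYB lists. The other 1999 gene-end entries overlapped a peak in at least 1 RH30 list, with 239 in 1 list, 335 in 2 lists, 290 in 3 lists and 1135 in all 4. The presence or absence of an RH30 peak chose the members, so the absence is a description and not a result. Away from gene ends, 129 of 693 entries (18.6%) had no RH30 peak.

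CUT&RUN, in which an antibody directs a nuclease to cut out the DNA around a bound protein, was used to map NF-Y subunits in RH4 and RH30, both lines of PAX3-FOXO1-positive rhabdomyosarcoma, a childhood tumour with features of skeletal muscle. RH4 cells were uninfected and profiled with an NFYB and an NFYC antibody. RH30 cells carried a rapamycin-inducible cytosine base editor, received a guide RNA by transduction, were selected with blasticidin and were harvested 8 days after rapamycin, and 4 such cultures were profiled with the NFYB antibody. The guides sgCCAAT2a and sgCCAAT2b target a CCAAT motif of the PAX3 promoter, and sgCtrl1 and sgCtrl2 are the control guides, so that editor, drug and selection were shared by edited and control cultures. Each combination of line, guide and antibody had 1 library. IgG controls of both lines (2 libraries) were left aside. For every library whose title says RH30, the labels name RH4 as the cell line, but the title matches the study's design text and treatment description and was followed. Line, editor, guide, drug, antibody list and peak calling all differ between the RH4 and RH30 lists and cannot be told apart. The RH4 lists held 3243 NFYB peaks (median 411 bp) and 3760 NFYC peaks (median 190.5 bp), for which depth is unknown, and the RH30 lists held 2451 to 6687 peaks of 143 to 197 bp from 10.5 to 28.2 M tags. All peaks were 189 bp wide in sgCtrl1, 197 bp in sgCtrl2 and 163 bp in sgCCAAT2b, and 143 to 153 bp in sgCCAAT2a. RH4 widths varied, from 210 to 1235 bp for NFYB and from 76 to 996 bp for NFYC. Peak heights are not in these files, so a site was either listed or not listed.

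NF-Y works as a complex of the proteins NFYA, NFYB and NFYC. NFYB and NFYC pair through histone folds like those of H2A and H2B, and NFYA then contacts the pentamer CCAAT, which is found upstream of the start of many genes of the cell cycle, lipid synthesis and protein folding. The factor binds CCAAT in either orientation, so the motif is read as CCAAT on one strand and as ATTGG on the other.

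Sequences are shown first for the members farthest from any RH30 peak among those with CCAAT in a listed window, since these are the members at which a shifted or neighbouring RH30 peak lies most distant. Each is 101 bases around the centre of the consensus entry, 5′ to 3′ on the gene's strand, from the RefSeq promoter table (GRCh38.p14), with CCAAT or ATTGG in capitals. The members are at DMRT2, a DM-domain transcription factor (chr9:1050224-1050324, plus strand), SPCS3, a signal peptidase subunit (chr4:176319776-176319876, plus strand), CEP20, a centrosomal protein (chr16:15888667-15888767, minus strand), EIPR1, a protein of endosomal retrieval (chr2:3377860-3377960, minus strand), and TMEFF2, a transmembrane protein (chr2:192194982-192195082, minus strand). The entry centres lay 83 to 139.5 bp upstream of the gene's start.
DMRT2: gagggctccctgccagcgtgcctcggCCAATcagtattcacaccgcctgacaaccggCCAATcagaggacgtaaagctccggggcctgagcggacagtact
SPCS3: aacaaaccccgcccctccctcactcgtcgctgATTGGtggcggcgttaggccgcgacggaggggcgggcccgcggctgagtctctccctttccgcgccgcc
CEP20: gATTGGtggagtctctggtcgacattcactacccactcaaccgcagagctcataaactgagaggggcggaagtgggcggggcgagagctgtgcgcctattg
EIPR1: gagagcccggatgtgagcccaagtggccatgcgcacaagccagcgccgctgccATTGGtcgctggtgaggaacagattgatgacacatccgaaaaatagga
TMEFF2: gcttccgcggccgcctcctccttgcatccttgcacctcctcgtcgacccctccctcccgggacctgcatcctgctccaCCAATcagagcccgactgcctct

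DMRT2 holds CCAAT at 2 places and the other 4 windows hold it at 1. The nearest RH30 peak lay 2794342 bp from the DMRT2 entry, 2533967 bp from SPCS3, 1552951 bp from CEP20, 1293021 bp from EIPR1 and 1180579 bp from TMEFF2. At DMRT2 the nearest peak was 3742330 bp away in sgCCAAT2a, 3742328 bp in sgCCAAT2b, 3742332 bp in sgCtrl1 and 2794342 bp in sgCtrl2. The entry was 207 bp wide there, from a 434-bp NFYB peak and a 207-bp NFYC peak. At DMRT2 both edited cultures and sgCtrl1 were within a few bases of the same distance, and sgCtrl2 had a closer peak.

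Other distant members had no CCAAT in the same window. They are at the shared start region of PSMB1 and TBP, where TBP is the TATA-binding protein (chr6:170554215-170554315, plus strand, the strand of TBP), at OTUB2, a deubiquitinase (chr14:94026228-94026328, plus strand), and at EOLA2 (chrX:149938621-149938721, minus strand).
TBP: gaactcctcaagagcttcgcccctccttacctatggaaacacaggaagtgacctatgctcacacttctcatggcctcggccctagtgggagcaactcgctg
OTUB2: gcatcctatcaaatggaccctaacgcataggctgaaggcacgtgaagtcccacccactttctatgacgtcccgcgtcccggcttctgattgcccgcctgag
EOLA2: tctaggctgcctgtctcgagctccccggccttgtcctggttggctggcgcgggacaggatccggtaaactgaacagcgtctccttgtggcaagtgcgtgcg

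For comparison, the widest entries found in all 4 RH30 lists, among those with a printable window, lie at CKS1B, a regulatory subunit of cyclin-dependent kinases (chr1:154974561-154974661, plus strand, 776 bp), and BLOC1S3, a subunit of a complex that builds lysosome-related organelles (chr19:45178555-45178655, plus strand, 734 bp).
CKS1B: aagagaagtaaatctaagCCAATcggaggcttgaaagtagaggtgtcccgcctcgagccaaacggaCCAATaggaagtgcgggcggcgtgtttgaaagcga
BLOC1S3: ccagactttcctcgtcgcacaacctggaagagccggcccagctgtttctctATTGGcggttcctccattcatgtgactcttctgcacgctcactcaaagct

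The 381 members fell into a near and a far population. The distance from a member to the closest RH30 peak had a median of 42144 bp, with quartiles of 189 and 156356 bp. An RH30 peak lay within 500 bp of 106 members (27.8%), between 500 bp and 10 kb from 24 (6.30%), between 10 and 100 kb from 123 (32.3%) and beyond 100 kb from 128 (33.6%). The near members had a peak in several lists: 77 members had a peak of sgCCAAT2a within 500 bp, 78 one of sgCCAAT2b, 91 one of sgCtrl1 and 98 one of sgCtrl2. These distances follow in part from the rule, which removed every entry at an overlap.

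**Figure D1:**
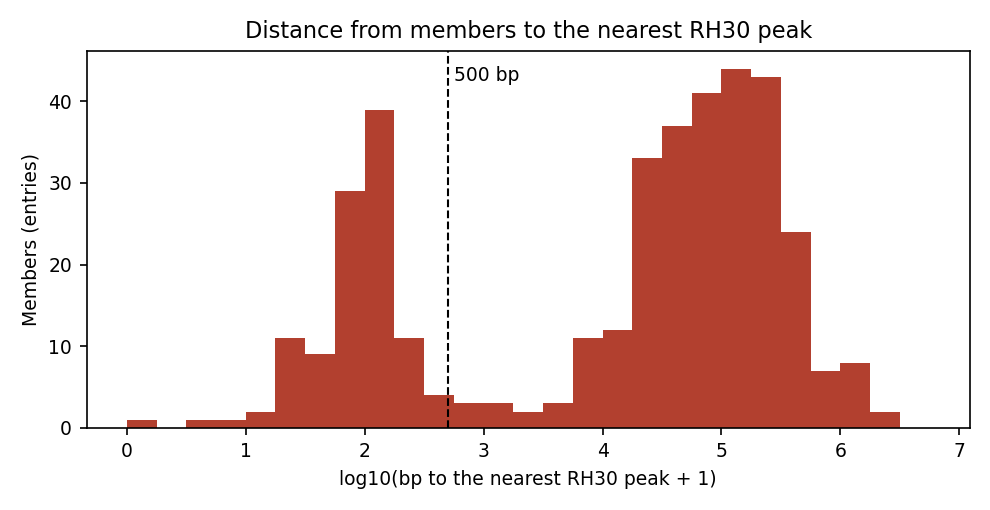
Distance from each of the 381 members to the nearest RH30 NFYB peak (log10 axis, bp), counted per bin. A group of 106 members lies within 500 bp, 123 lie at 10 to 100 kb and 128 beyond, with 24 between 500 bp and 10 kb.

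The near members mostly shared an RH4 NFYB peak with a site that RH30 did list. Of the 106, 97 came from an NFYB peak that also gave rise to another gene-end entry with an RH30 peak. None of the 275 members beyond 500 bp did. This contrast follows largely from position, because entries under the same NFYB peak lie close together. The widths and centre distances given next are not independent of it. The near members' NFYB peak was wide, with a median of 505 bp against 337 bp for the 275. Their NFYC peak was short, with a median of 86 bp against 153 bp. The centres of the NFYB and NFYC peaks lay a median of 225.75 bp apart at near members and 35.5 bp apart at the others. The near members' entries were 76 bp wide at the median, against 146 bp. Where a start was listed within 1000 bp (91 near members), their centres lay on both sides of it. The median was 88.5 bp downstream, with quartiles of -154.75 and 169.5 bp (negative is upstream). At the 217 other members with a listed start it was 99.5 bp upstream, with quartiles of -160.5 and -52 bp. Of the 381 members, 102 had an RH30 peak somewhere under their full NFYB peak even though the consensus bases held none.

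The 5 members closest to an RH30 peak lay 0 to 16 bp from it. At ING2, a reader of histone methylation, the 159-bp entry (chr4:183504538-183504696) ended against an sgCtrl2 peak with 0 bp between them, while the nearest peak was 10169935 bp away in sgCCAAT2a, 1229362 bp in sgCCAAT2b and 154383 bp in sgCtrl1. At SAMM50, a protein of mitochondrial outer membrane assembly, a 44-bp entry lay 940002 bp from a peak of sgCCAAT2a, 768534 bp from one of sgCCAAT2b, 8 bp from one of sgCtrl1 and 4 bp from one of sgCtrl2. At ANAPC15, a subunit of the anaphase-promoting complex, the 115-bp member lay 6 bp from an sgCtrl2 peak and shared its NFYB peak with a 291-bp entry listed in all 4 RH30 cultures. ZNF436 (40 bp, 12 bp from an sgCCAAT2a peak) and the region of MROH8 and RPN2 (127 bp, 16 bp from an sgCtrl2 peak) likewise shared an NFYB peak with entries of 299 bp in 2 lists and 252 bp in 4 lists. RPN2 is a subunit of the oligosaccharyltransferase.

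Just outside the rule, the shortest overlaps with an RH30 peak were 3 bp at ELOVL1 and at DELE1, 4 bp at AGRN and at SEC23B and 5 bp at the region of CISH and MAPKAPK3. The ELOVL1 entry was itself 3 bp wide and lay in the sgCtrl1 and sgCtrl2 lists. The other 4 entries were 95, 30, 164 and 52 bp wide and lay in 1 list each.

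Members had the narrowest consensus entries of any class of gene-end entry. Their median width was 116 bp (quartiles 76 and 182, 95% interval of the median 104 to 129), against 156 bp in 1 RH30 list, 178 bp in 2, 228 bp in 3 and 278 bp in 4. The quartiles of the entries in all 4 lists were 218 and 362.5 bp, so the upper quartile of the members lay below the lower quartile of that class. The 275 members beyond 500 bp had a median width of 146 bp (130 to 161). That interval overlaps the interval of entries in 1 list (144 to 171). The width is not independent of the rule, because a wider entry offers more bases for a peak to touch. The NFYC peak differed more between classes than the NFYB peak. Its median width was 134 bp at members and 165, 184, 228.5 and 280 bp at entries in 1, 2, 3 and 4 lists. The NFYB peak was 384 bp at members and 376, 381, 428 and 470 bp in those classes. The centres of the 2 peaks lay a median of 57.5 bp apart at members, against 45.5, 36, 30.75 and 25 bp in those classes. The near members carried this, since the 275 members beyond 500 bp had a median of 35.5 bp, below that of entries in 1 list and close to that of entries in 2.

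**Figure D2:**
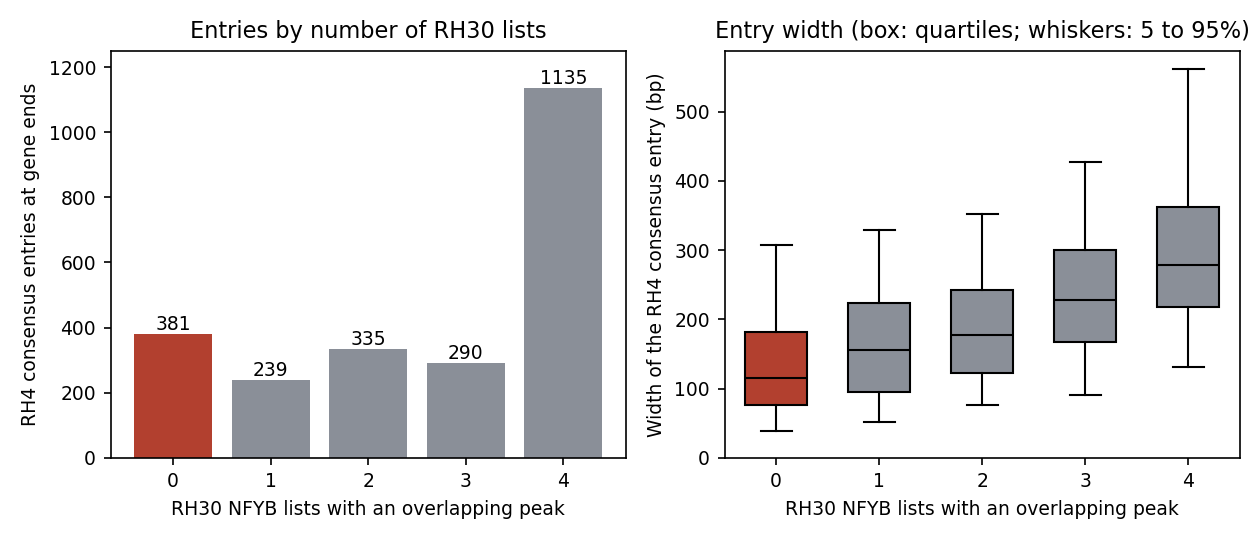
Gene-end entries counted by the number of RH30 lists with an overlapping peak (left) and their widths in bp (right), with the members (0 lists) leftmost. The members number 381 with a median of 116 bp, and the 1135 entries in 4 lists have a median of 278 bp.

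The 10 widest members measured 363 to 570 bp, above the upper quartile of the entries in all 4 lists. DMPK, the myotonic dystrophy kinase, had the widest (chr19:45770397-45770966, 570 bp), and here an sgCtrl2 peak lay 747 bp away while the nearest peaks of sgCCAAT2a, sgCCAAT2b and sgCtrl1 were 52898, 21906 and 21873 bp away. TIAM1, an exchange factor for the GTPase RAC1, had 520 bp at a distance of 99905 bp, with 3 CCAAT in the promoter under it. SMAD2, a transducer of TGF-beta signals, had 454 bp at 132199 bp, with 1 CCAAT. The region of LENG1 and TMC4 had 449 bp and 4 CCAAT. The others were TMEM50B (486 bp), AGPAT5, an acyltransferase of phospholipid synthesis that was also among the 5 members farthest from an RH30 peak (440 bp, 1519515 bp), ELAVL3, a neuronal RNA-binding protein (372 bp), the region of PHETA2 and SMDT1, of which SMDT1 regulates the mitochondrial calcium uniporter (370 bp), FAM204A (369 bp) and the region of LMNTD2 and RASSF7 (363 bp). Of these 10, DMPK and PHETA2 with SMDT1 had an RH30 peak within 10 kb. The promoter table lists no start within 1000 bp of the entries at DMPK, TMEM50B, ELAVL3, FAM204A and the region of LMNTD2 and RASSF7. An entry can lie at the finish of a gene.

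CCAAT was less frequent at members than at entries found in RH30, and more frequent than at promoters in general. This comparison uses the sequence, which the rule did not. In the 300 bases of the promoter (250 before to 50 after the start) nearest to the entry for each gene, CCAAT or its reverse complement stood in 260 of 384 member promoters (67.7%, 62.8 to 72.4%), against 67.7, 80.1, 83.2 and 87.7% for entries in 1, 2, 3 and 4 lists. Over all entries with an RH30 peak it stood in 83.8% (82.1 to 85.3%), and over all 22199 promoters of protein-coding genes in the table in 34.7%. A promoter was held for 319 of the 381 members (83.7%). No sequence of chromosome 8 was used here, so its 17 members enter no motif share and no start position. The member share thus equalled that of entries in 1 list.

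In a window on the entry itself the share was lower, and it differed between near and far members. In 101 bases around the entry centre, 118 of 188 members (62.8%, 55.4 to 69.7%) held CCAAT, against 69.8, 81.0, 87.0 and 87.1% in 1 to 4 lists and 20.8% of all promoters in a window of the same length centred 75 bases before the start. This window was held for 49.3% of members and 64.3% of the other gene-end entries, so as a check of the whole set it is void, and the shares describe those entries alone. Among near members it held CCAAT in 4 of 26 (15.4%, 4.36 to 34.9%), below the share of all promoters in number but with an interval that covers it. At members 500 bp to 10 kb from a peak the count was 5 of 14 (35.7%), at 10 to 100 kb it was 49 of 75 (65.3%), and beyond 100 kb it was 60 of 73 (82.2%, 71.5 to 90.2%). Members without an RH30 peak within 500 bp had 70.4% (62.7 to 77.3%). In the 300 bases of the nearest promoter the share did not follow the same order. CCAAT stood in 87 of 116 promoters at near members (75%, 66.1 to 82.6%). Beyond 500 bp it stood in 173 of 268 (64.6%, 58.5 to 70.3%), with overlapping intervals. By distance, it stood in 12 of 26 at 500 bp to 10 kb (46.2%) and 74 of 123 at 10 to 100 kb (60.2%). Beyond 100 kb it stood in 87 of 119 (73.1%, 64.2 to 80.8%). In the 101 bases the interval of the farthest members overlaps that of entries in 4 lists. In the 300 bases it lies below that of entries in 4 lists (85.7 to 89.5%).

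**Figure D3:**
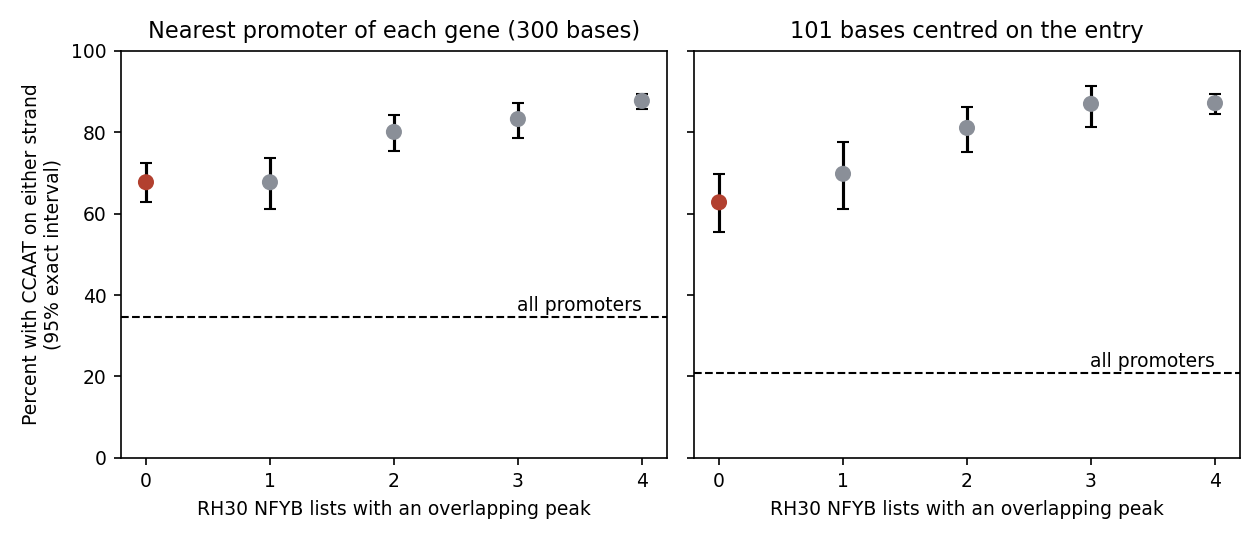
Percent of sequences with CCAAT or its reverse complement, by number of RH30 lists and by window, with exact 95% intervals and the share of all promoters as a line. Members (0 lists) stand at 67.7% for the nearest promoter of each gene and at 62.8% for the 101 bases on the entry centre, above all promoters at 34.7% and 20.8%.

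Where a member did hold CCAAT, its median distance from the start was close to that of entries in 1 to 3 lists and shorter than that of entries in 4. In the overlapping promoters it lay a median of 82 bases before the start (quartiles 55 and 128, 165 promoters), against 84, 79.5, 81 and 99 bases in 1 to 4 lists, and 52.7% of them (44.8 to 60.5%) lay 50 to 100 bases before the start, against 44.2, 51.3, 39.3 and 39.1% (35.9 to 42.4% in 4 lists). The gene's strand carried CCAAT in 52.1% of cases. The entry centre was a median of 23 bp from the closest CCAAT at members and 21, 20.5, 20.25 and 19.5 bp at the other classes. Repeated motifs were less frequent at members: 64 of 235 members over a promoter (27.2%, 21.6 to 33.4%) had at least 2 CCAAT in it. In 1 to 4 lists the share was 32.2, 38.9, 56.7 and 69.5%. The intervals in 1 list (25.2 to 39.7%) and 2 lists (32.8 to 45.2%) overlap that of members. At least 2 CCAAT stood at 2 of 36 near members (5.56%) and at 62 of 199 beyond 500 bp (31.2%, 24.8 to 38.1%). The share with any CCAAT there was 72.3% (66.2 to 78.0%), against 77.2, 90.1, 93.5 and 95.8%. It was 20 of 36 at near members (55.6%) and 150 of 199 beyond 500 bp (75.4%, 68.8 to 81.2%).

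Motifs of other promoter factors were set beside it in the same 300 bases, on both strands, and none of the 7 searched contains another. The GC box GGGCGG stood in 74.5% of member promoters (69.8 to 78.8%), against 79.9% for entries in 4 lists and 56.3% of all promoters. The full cyclic AMP response element TGACGTCA stood in 4.69% (2.80 to 7.31%), against 3.98, 5.30, 3.02 and 1.96% for entries in 1, 2, 3 and 4 lists and 2.26% of all promoters. The share of members thus lay below that of entries in 2 lists, and it rests on 18 promoters. The E-boxes CACGTG (11.5% against 9.79% and 8.34%) and CAGCTG (16.4% against 15.7% and 18.0%), the ETS motif CCGGAAG (18.2% against 17.1% and 12.8%) and TATAAA (3.13% against 3.83% and 9.47%) had intervals that overlapped between members and 4-list entries. The GC content of the 101 bases was 65.3% at the median in members, as in all entries with an RH30 peak.

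The promoter table lists a start within 1000 bp of 308 members and of 1679 other gene-end entries, and there the entry centre lay a median of 89 bp before the start at members and 102 bp before it at the others. These counts depend on which genes the table holds, so they are not read as shares of entries at starts. At least 2 gene ends lay in reach of 105 members (27.6%, 23.1 to 32.3%), against 458 other entries (22.9%, 21.1 to 24.8%), with overlapping intervals.

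Across the genome, members were found on all 23 chromosomes that had a gene-end entry, and their share of those entries ran between 9.46% on chromosome 5 (7 of 74) and 29.4% on chromosome 18 (5 of 17). Chromosome 8 was the 1 chromosome whose 95% interval lay wholly above the overall 16.0%, with 17 members among 62 entries (27.4%, 16.9 to 40.2%), and no interval lay wholly below it. With 23 intervals read side by side and not adjusted for their number, 1 such interval is given as a value only. Chromosome 8 also held a larger part of the RH4 lists (2.56% of NFYB and 2.63% of NFYC peaks) than of the RH30 lists (1.02% in sgCCAAT2a, 1.33% in sgCCAAT2b, 1.66% in sgCtrl1 and 2.00% in sgCtrl2). Without the members that had an RH30 peak within 500 bp, 13 entries (21.0%) remained on chromosome 8, against 11.6% over all chromosomes. With the control lists alone, the chromosome 8 interval (16.9 to 40.2%) contained the 17.9% over all chromosomes. Chromosome 19, the densest in zinc finger genes, held the largest number of members, 65 of 332 entries (19.6%, 15.4 to 24.3%).

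**Figure D4:**
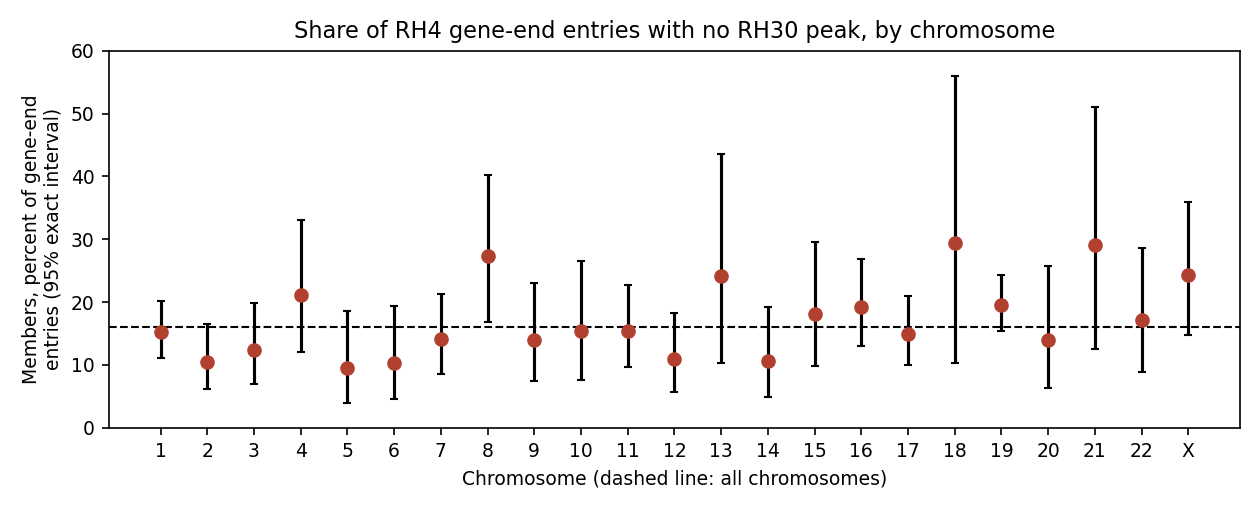
Percent of gene-end entries that were members on each chromosome, with exact 95% intervals and the overall percent as a line. The interval of chromosome 8 (17 of 62, 27.4%) lies above the line of 16.0%, and those of the other 22 chromosomes cross it.

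Members also stood side by side. In 12 places, 3 or more successive gene-end entries were all members, 52 entries in all, the longest stretch holding 8. This stretch lay at the end of chromosome 11 (chr11:535535-2400573, 1.87 Mb) and ran from HRAS, the GTPase, past the regions of LMNTD2 and RASSF7, of LOC124902805 and PHRF1 and of PIDD1 and RPLP2 (2 entries), to BRSK2, DUSP8 and TSSC4. RPLP2 encodes a ribosomal stalk protein, PIDD1 a death-domain protein, BRSK2 a kinase and DUSP8 a phosphatase. Between its ends the lists held 9 RH4 NFYB peaks and 12 RH4 NFYC peaks, against 0 peaks in sgCCAAT2a, 0 in sgCCAAT2b, 0 in sgCtrl1 and 5 in sgCtrl2. The members there were 17 to 363 bp wide and 111638 to 450819 bp from the nearest RH30 peak, which for all 8 was an sgCtrl2 peak.

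The second stretch (chr17:35809306-38800123, 2.99 Mb) held 6 members, at TAF15, an RNA-binding protein, ZNHIT3, the region of MYO19 and GGNBP2, EPOP, PSMB3, a proteasome subunit, and the region of PIP4K2B and CWC25. RH4 had 8 NFYB and 8 NFYC peaks there, against none in any of the 4 RH30 lists. The gene-end entries on either side, at CPD and FBXL20, were found in 3 and 2 RH30 lists. The third stretch (chr19:54159659-54449404, 290 kb) held 6 members at LENG1 with TMC4, MBOAT7 with TSEN34 (2 entries), RPS9 and LENG8 (2 entries), with 5 NFYB and 7 NFYC peaks in RH4 and none in RH30. TSEN34 is a subunit of the tRNA splicing endonuclease, and RPS9 is a protein of the small ribosomal subunit. Its neighbours at CNOT3 and EPS8L1 were found in 4 and 1 RH30 lists. The stretches were chosen as successive members, so the RH4 peaks and the lack of RH30 overlap at their entries follow from the rule. The peak counts are thus a description of the stretches and not a separate contrast between the lines. No chance level was computed for such stretches.

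**Figure D5:**
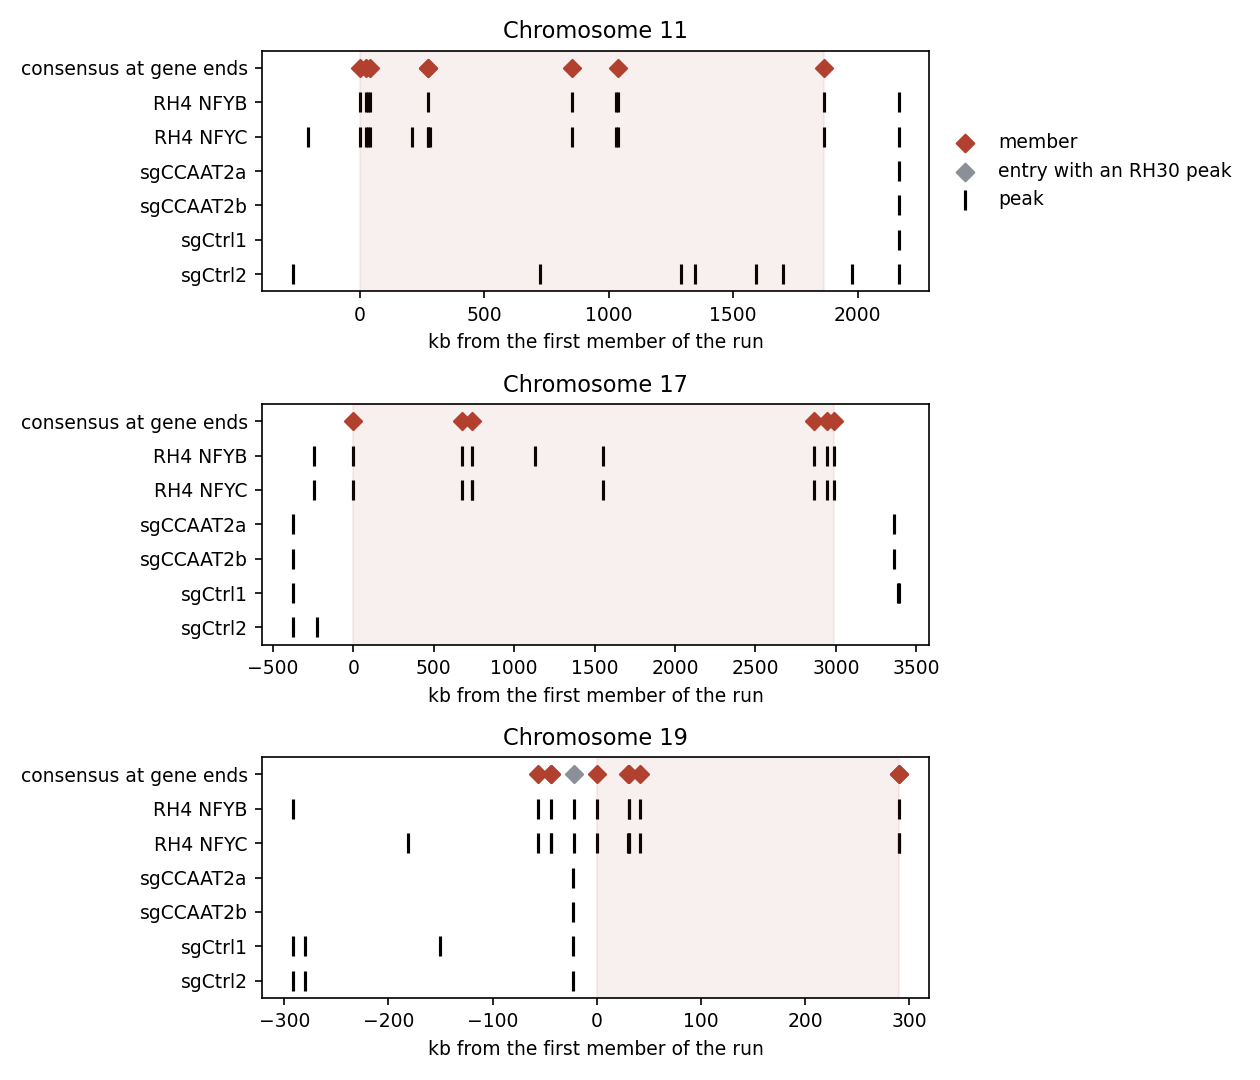
Peaks of the 2 RH4 and 4 RH30 lists along the 3 longest stretches of successive members, by distance in kb from the first member, with vertical marks for peaks, red diamonds for members, a grey diamond for an entry with an RH30 peak and shading for each stretch. Within the stretches both RH4 rows hold peaks, and the RH30 rows are empty except for 5 sgCtrl2 peaks in the stretch of chromosome 11. At the members themselves this follows from the rule that chose them.

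The members lay at 464 genes. For 334 of these, every consensus entry at the gene's ends was a member, which is 12.5% of the 2680 genes with any such entry, and for 316 no RH30 peak stood anywhere in the end windows. An RH30 peak did stand in the windows of 148 of the 464 (31.9%, 27.7 to 36.4%), so absence from the entry is not absence from the gene. The lists of genes below are read against 12.5%, and genes that share a start region share an entry.

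The lists of processes for which NF-Y is best known had 0 to 2 genes each with members only, which is read against 12.5% of all genes with an entry. In the protein folding and unfolded protein response list, 1 of 20 genes with an entry had members only (5%, 0.127 to 24.9%): SYVN1, a ubiquitin ligase of the endoplasmic reticulum, with a 201-bp entry 84 bp from an RH30 peak. For cholesterol and fatty acid synthesis it was 1 of 19, INSIG1, which retains the sterol sensor in the endoplasmic reticulum (238 bp, 1082 bp from an RH30 peak). For G2 and M phase it was 1 of 23, CCNA2, cyclin A2, whose 88-bp entry in the region shared with BBS7 lay 46467 bp from an RH30 peak. DNA replication and G1/S had 2 of 16, CCNE2, cyclin E2 (165 bp, 53519 bp), and MCM10, a replication initiation factor (129 bp, 799100 bp, 2 CCAAT). DNA repair had 0 of 14, which allows up to 23.2%, heat shock proteins and chaperones 0 of 7, the subunits and partners of NF-Y 0 of 10, and serine and one-carbon synthesis 0 of 8. Each of these intervals contains or reaches 12.5%, so the lists were not distinguishable from all genes at this size.

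In several of these lists a gene had a member beside an entry that RH30 did list. SEL1L (72 bp, 73 bp from an RH30 peak), ACAT2 (71 bp, 170 bp), ECT2 (76 bp, 119 bp), HMMR (218 bp, 35 bp), GMNN (84 bp, 189 bp), RRM2 (113 bp, 89 bp) and PYCR1 (76 bp, 85 bp) were of this kind, all within 500 bp of an RH30 peak. CDK2, the kinase of S phase entry, was an exception, with a 119-bp member 6983 bp away. Over all genes with an entry, 464 of 2680 had any member. The counts here were 2 of 20 for protein folding, 2 of 19 for cholesterol and fatty acids and 3 of 23 for G2 and M phase. They were 5 of 16 for DNA replication and G1/S and 1 of 8 for serine and one-carbon synthesis. DNA repair, chaperones and NF-Y subunits and partners had 0.

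Proteasome subunits had the highest share, 4 of 9 genes (44.4%, 13.7 to 78.8%), an interval that lies above 12.5%. The 4 were PSMA2 (162 bp, 144107 bp from an RH30 peak, shared with MRPL32), PSMB1 (82 bp, 1249823 bp, shared with TBP), PSMB3 (286 bp, 415765 bp, 2 CCAAT) and PSMD10 (205 bp, 155362 bp). Transcriptional kinases and elongation factors followed with 3 of 7 (42.9%, 9.90 to 81.6%): CCNT2, a cyclin of the elongation kinase (182 bp, 114859 bp), CDK13 (153 bp, 216023 bp) and LARP7, a protein of the 7SK particle (77 bp, 156356 bp). Cytosolic ribosomal proteins had 5 of 17 (29.4%, 10.3 to 56.0%), among them RPL28 (282 bp, 15334 bp), RPLP2 (103 and 73 bp, 450819 and 450676 bp), RPS16 (89 bp, 23432 bp) and RPS9 (193 bp, 63499 bp). RPL28, RPS16 and RPS9 are on chromosome 19. With 30 lists read and their intervals not adjusted, the 1 list above 12.5% is given as a count, and the lists were chosen with earlier results known.

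For the remaining lists the interval contained 12.5%. Replication-dependent histones had 4 of 23 genes, at 2 shared entries: H2AC25 with H2BC26 (356 bp, 50743 bp from an RH30 peak, 3 CCAAT) and H2BC9 with H3C7 (143 bp, 27168 bp, 3 CCAAT). Zinc finger genes named ZNF had 13 of 65 on chromosome 19 (20%, 11.1 to 31.8%) and 8 of 51 elsewhere (15.7%, 7.02 to 28.6%). Among them ZNF100 (26 bp, 68501 bp), ZNF132 (320 bp, 2451 bp), ZNF146 (90 bp, 74793 bp) and ZNF141 on chromosome 4 (265 bp, 136243 bp) had members only. Subunits of Mediator, Integrator and RNA polymerase II had 3 of 18, all of Integrator: INTS3 (298 bp, 56561 bp, 3 CCAAT), INTS6 (176 bp, 481316 bp) and INTS8 (76 bp, 126040 bp). Oxidative phosphorylation had 2 of 16, NDUFA3 (125 bp, 34184 bp) and NDUFA6 (288 bp, 19686 bp), both of complex I. Translation factors had 2 of 15, EEF1A1 (81 bp, 59577 bp) and EIF3D (94 bp, 47119 bp). Mitochondrial ribosomal proteins (MRPL32) and aminoacyl-tRNA synthetases (YARS1, 204 bp, 62217 bp) had 1 of 12 each, nuclear transport had 1 of 10 (SEH1L, 27 bp, 160 bp), and secretory translocation and coats 0 of 10. Solute carriers had 6 of 40, among them SLC25A1, the mitochondrial citrate carrier (33 bp, 15064 bp), and SLC25A37, a mitochondrial iron importer (205 bp, 139820 bp).

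Few muscle genes and few reported targets of the fusion protein had an RH4 consensus entry at all, so their member counts are small. Of 30 muscle genes 4 had a consensus entry and none had members only. MYL11, a muscle myosin light chain, had a 270-bp member in a region shared with SEPTIN1 and ZNF48, 5356 bp from an RH30 peak. MYL11 also had an RH30 peak in its windows. A member counts for a gene at its start or at its finish. Of 20 reported targets of PAX3-FOXO1, 4 had an entry and ASS1, argininosuccinate synthase, had members only (181 bp, 19922 bp). This is 25% with an interval of 0.631 to 80.6%, against 12.5% over all genes. The promoter table lists no start within 1000 bp of the ASS1 entry, so it is not read as a promoter site. BCL2-family genes (0 of 2), clock genes (0 of 5), imprinted genes (0 of 3) and MHC class II genes (0 of 1) had none, and the blood and liver marker lists had no gene with an entry. Peak positions do not measure expression, so no cell type was read from these lists.

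The PAX3 promoter, the target of the edit, is not a member. Its 93-bp RH4 entry (chr2:222299050-222299142, with 2 CCAAT in the promoter under it) lay 410349 bp from the nearest peak in sgCCAAT2a and 410415 bp in sgCCAAT2b, and overlapped peaks in sgCtrl1 and sgCtrl2. FOXO1 had no gene-end consensus entry.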

How the data were processed

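Peak positions (1-based bp, build hg38 per the submitters' processing notes) were read from the peak lists that the authors deposited, which hold no peak heights or scores: position values are the only measurement used. Each RH30 library had its own HOMER call in factor style, per the file headers, requiring 2-fold over input, a Poisson p-value of 0.0001 and 4-fold over the surrounding 10000 bp, with the same input for all 4. For the RH4 lists, the caller is not given in the sources used. The submitters' processing notes also name FastQC, Trimmomatic, Bowtie2, MACS2, bedtools and deepTools. No version was given.

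Gene ends were those of 20037 protein-coding genes of the RefSeq table (GRCh38.p14), and overlap meant at least 1 bp. Promoter sequences came from the RefSeq promoter table, which held 15843 of those genes (79.1%), so shares describe the genes it holds. Sequence of chromosome 8 was not used here. Intervals are exact Clopper-Pearson at 95%, cover counting only, and treat entries as independent, although neighbouring entries can share a peak. With 1 library per condition no test between lines was possible and no p-value was computed. The members, lists and tests were chosen with earlier results of these data known. Named genes were PAX3, FOXO1, the 10 widest, 5 nearest and 5 farthest members, the 5 shortest overlaps outside the rule, the 3 longest stretches and up to 6 genes per list in alphabetical order, of which some are printed. A gene of the ribosomal protein list is not reported here. The genes with printed sequences outside this rule (TMEFF2, TBP, OTUB2, EOLA2, CKS1B, BLOC1S3) and those flanking a stretch or sharing an entry were chosen after their values were seen. Overlap counts and gaps were tested on simulated positions and equalled those of bedtools in 20 of 20 sets. Alternatives varied the window, the overlap, the RH30 lists and the promoter window. Python 3.11.15, pandas 2.3.3, numpy 2.4.6, scipy 1.17.1, matplotlib 3.10.9 and bedtools 2.31.1 were used.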

Additional observations from a re-analysis of the deposited data

How the results depend on the processing

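The count of 381 members ranged between 275 and 536 over 13 other settings and stayed within 1.5 times of it in all. The highest value, 536, came without the sgCtrl2 list, the longest of the RH30 lists, which alone accounted for 155 of the 239 entries found in 1 list. Requiring no RH30 peak within 500 bp gave 275, and testing the full NFYB peak gave 279. The median entry width of 116 bp became 146 bp without an RH30 peak within 500 bp, against 237 bp for the other entries. It became 384 bp when the NFYB peak was measured, against 441 bp, and 134 bp for the NFYC peak, against 243 bp. Members were thus narrower than the pooled other entries in all 3. By class, the NFYB peak of members was not narrower than that of entries in 1 list (376 bp) or 2 lists (381 bp). It was narrower than that of entries in 3 lists (428 bp) and 4 lists (470 bp). The share of member promoters with CCAAT, 67.7%, became 54.9% in the 150 bases before the start, against 73.9% for entries with an RH30 peak, a window that holds fewer bases, and lay between 64.6 and 70.4% in the other 4 settings. Chosen after seeing the data, the chromosome 8 share was 21.0% without near members (11.7 to 33.2%), against 11.6% over all chromosomes. With control lists alone it was 27.4% (16.9 to 40.2%), an interval that contains the 17.9% over all chromosomes. The 334 genes became 325 without near members and 378 with control lists alone. No paired analysis was possible because each line, guide and antibody had 1 library. RH30 lists of 10.5 to 28.2 M tags differ in depth and length, RH4 depth is unknown, and a site under the calling threshold cannot be told apart from an unbound one.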

Other observations

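Away from gene ends, the 129 consensus entries without an RH30 peak were also narrow, with a median of 128 bp against 242 bp for the 302 found in all 4 RH30 lists. A listed promoter overlapped 35 of the 129 (27.1%) and 125 of the 302 (41.4%), and CCAAT stood in 31 of the 35 (88.6%, 73.3 to 96.8%) and 120 of the 125 (96.0%, 90.9 to 98.7%).

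The 381 members rested on 365 different NFYB peaks and 381 different NFYC peaks, and 50 of them had an NFYC peak of 76 bp, the shortest in that list. Among entries found in 1 RH30 list alone, 26 of 239 were in sgCCAAT2a, 7 in sgCCAAT2b, 51 in sgCtrl1 and 155 (64.9%) in sgCtrl2.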
